A study of Mus musculus with 8 samples.

Results

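The genes described here are the 9 whose human counterparts or mouse mutants are known for polycystic kidney disease: Pkd1, Pkd2, Pkhd1, Ganab, Dnajb11, Dzip1l, Bicc1, Cys1 and Glis3. They were taken by symbol from the 55414 genes of the deposited tables, and each was joined by its Ensembl identifier to its expected count. RNA-seq was done on mpkCCD cells, a mouse cortical collecting duct line that resembles principal cells. The samples formed 2 groups of 4 libraries, namely tolvaptan plus dDAVP and dDAVP alone. dDAVP is a vasopressin analogue that activates the V2 receptor, and tolvaptan is an antagonist of that receptor that is given to patients with the dominant form of the disease. All 8 libraries therefore came from cells that had dDAVP, and no library without dDAVP was analysed here. The labels give neither dose nor duration and name no alteration of any of the 9 genes. According to the study's methods the line descends from collecting ducts of mice carrying an SV40 T antigen transgene and was recloned for high Aqp2, so the libraries describe a single immortalised clone. Whether the methods in the paper were written for exactly these libraries could not be settled from the labels. The comparison addresses whether transcripts of the disease genes themselves differ when collecting duct cells have tolvaptan in addition to dDAVP.

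In polycystic kidney disease, tubule cells divide and secrete fluid into cysts, many of which arise from the collecting duct. Polycystin-1 and polycystin-2, the products of Pkd1 and Pkd2, form a receptor and channel complex that is found at the primary cilium, a sensory antenna of the apical membrane. Other genes of the disease act on the folding of these proteins in the endoplasmic reticulum, on the cilium, or on transcription and mRNA in the tubule cell, while cAMP made downstream of the V2 receptor promotes cyst growth.

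None of the 9 genes changed detectably. All 9 had 10 or more counts in each of the 8 libraries and were tested, and 0 of them passed a Benjamini-Hochberg adjusted p of 0.05 in edgeR's quasi-likelihood test, in which 0.399% of 14772 genes passed (59 genes). DESeq2, which called 2.58% of the genes it adjusted, limma voom, which called 0.386%, and limma on log2(TPM + 1), which called 0.149%, also called 0 of the 9. At an unadjusted p under 0.05 edgeR gave 1 gene, Pkd1, on the higher side, and 0 on the lower, where 6.44% of all tested genes were higher with tolvaptan at that level and 4.74% lower (11.2% in all). The normalised counts of the groups overlapped for all 9, and did not for 7.76% of the tested genes. Log2 fold changes, tolvaptan plus dDAVP over dDAVP alone, were above 0 for 6 and below 0 for 3 genes, where 48.3% of all tested genes were above 0, with a median of 0.04 beside -0.0048 over all tested genes. The 95% confidence intervals of all 9 lay inside a 1.5-fold change in either direction. These intervals and p-values measure the spread between libraries, which may be technical: separate cultures are not named in the labels.

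**Figure D1:**
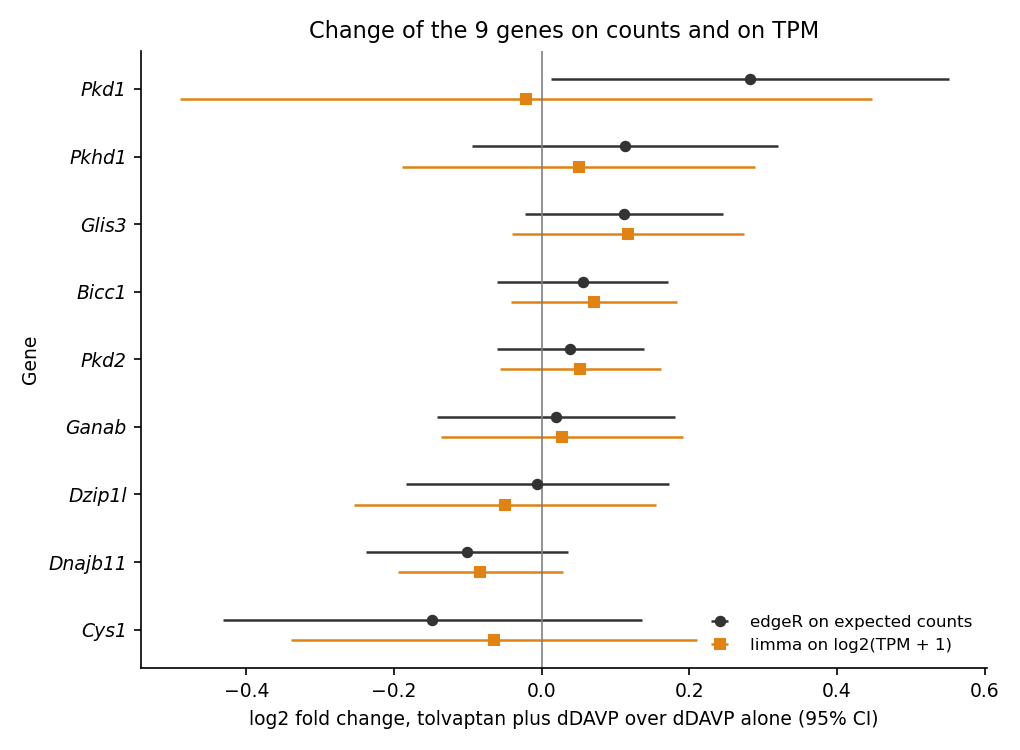
Log2 fold change of each gene, tolvaptan plus dDAVP over dDAVP alone, with its 95% confidence interval (4 libraries a group), from edgeR on expected counts (circles) and from limma on log2(TPM + 1) (squares). Pkd1 had the largest estimate on counts, 0.28, and -0.02 on TPM; every other interval covered 0 on both measures.

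The libraries overlapped in depth, with 41179670 to 49720488 expected counts in tolvaptan plus dDAVP and 46189118 to 56203831 in dDAVP alone. Both groups were split by replicate in the number of genes with a count. Replicates 1 and 2 had 26314 to 29246 such genes, and replicates 3 and 4 had 22203 to 24195. Expected counts of olfactory and vomeronasal genes, scaled to a common library total (CPM), were 29.4 to 52.9 and 12.5 to 20.4. The main edgeR fit had no term for this split, and its cause was not tested. Replicates 3 and 4 were also fitted alone. Most markers of principal cells were present, while 2 or 3 markers of each list for other cell types had enough counts to be tested. Aqp2, the vasopressin-regulated water channel of principal cells, averaged 9439 ± 1014 TPM in tolvaptan plus dDAVP and 8947 ± 871 TPM in dDAVP alone (SD, n = 4 each; edgeR log2 fold change 0.05, adjusted p = 0.857). Aqp2 transcription is known to be raised through the V2 receptor and cAMP. The paper reports lower Aqp2 mRNA with tolvaptan, but a lower level was not seen in these libraries. Whether the paper's values came from exactly these libraries could not be settled. The degree to which the receptor was blocked was not tested here, which also limits the reading of the 9 genes. Avpr2, the V2 receptor gene, was at 322 ± 37.8 TPM in tolvaptan plus dDAVP and 319 ± 31.8 TPM in dDAVP alone. Of the 12 principal cell markers 9 were tested, while Elf5 averaged 0.111 TPM and the potassium channel Kcnj1 and Tfap2b under 0.1 TPM. Of 9 intercalated cell markers, the pump subunit Atp6v1b1 was the highest, at 30.9 to 112 TPM over the 8 libraries. Aqp6 averaged 4.405 TPM, and Foxi1, Slc4a1 and Slc26a4, named after their values were seen, averaged under 0.1 TPM. The highest marker was Lrp2 for proximal tubule (9.30 TPM) and Trpm6 for the loop and distal tubule (0.573 TPM). For immune cells it was Cd68 (5.68 TPM), for stroma and endothelium Pdgfra (0.154 TPM) and for podocytes Synpo (42.2 TPM). The second highest averaged 0.149 TPM for proximal tubule (Aqp1) and 0.16 TPM for immune cells (Ptprc). Podxl, also a podocyte marker, averaged 14.7 TPM, and Nphs1, likewise named after its value was seen, was under 0.1 TPM. In bulk RNA, fewer cells expressing a gene and less RNA per cell cannot be told apart.

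Levels of the 9 genes spanned a wide range. TPM, which sums to one fixed total per library, is corrected for gene length, so levels of different genes can be set side by side. Ganab was the highest, at a mean of 235 TPM over the 8 libraries, followed by Dnajb11 (176 TPM), Bicc1 (130 TPM), Pkd2 (52.8 TPM), Glis3 (32.2 TPM), Pkhd1 (11.3 TPM), Dzip1l (10.4 TPM), Pkd1 (7.55 TPM) and Cys1 (4.90 TPM). The genes of protein folding in the endoplasmic reticulum thus stood at the top of the order and the receptor of the complex near its bottom. The place of Pkd1 is less certain, because the length assigned to it varied between libraries, as described below. From Ganab down to Pkhd1 each gene was above the next one in all 8 libraries, with no overlap between their ranges. Pkhd1 and Dzip1l were not separated, the mean of Pkhd1 being 1.09 times that of Dzip1l and Pkhd1 the higher in 6 of 8 libraries. The ranges of Dzip1l and Pkd1 overlapped, as did those of Pkd1 and Cys1, although the first of each pair was the higher within every library. The median tested gene had a mean of 19.3 TPM, and 5 of the 9 lay above it.

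**Figure D2:**
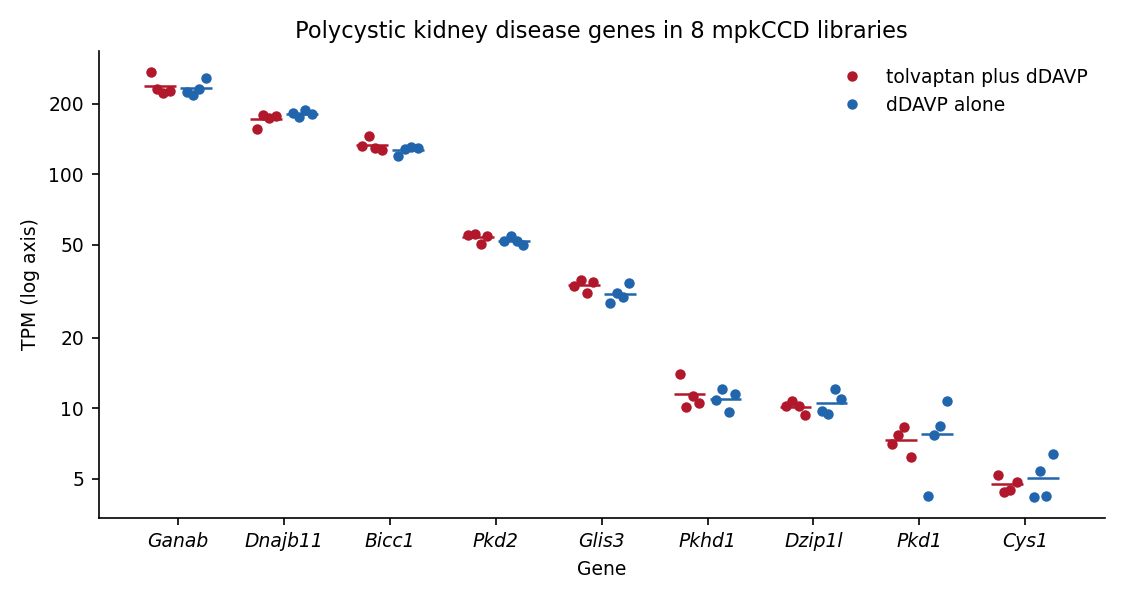
TPM of each gene on a log axis, one point per library and a line at each group mean, with tolvaptan plus dDAVP left of dDAVP alone and genes in order of their mean. Levels ran from 4.90 TPM for Cys1 to 235 TPM for Ganab, and the groups overlapped for every gene.

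Pkd1 (ENSMUSG00000032855) encodes polycystin-1, a very large membrane protein with a receptor-like extracellular part, and is the gene most often mutated in the dominant disease. Its expected counts, scaled to a common library total (CPM), were 54.2, 36.1, 37.5 and 40.6 in tolvaptan plus dDAVP replicates 1 to 4, against 31.6, 35.9, 30.9 and 39.6 in dDAVP alone replicates 1 to 4. Replicate 1 of tolvaptan plus dDAVP was well above the other 7 libraries, which lay between 30.9 and 40.6 CPM and overlapped between the groups. The log2 fold change was 0.28 (standard error 0.12), that is 1.22-fold with a 95% confidence interval of 1.01 to 1.47, and it did not pass the edgeR test across all genes (adjusted p = 0.417). Without tolvaptan plus dDAVP replicate 1 the log2 fold change was 0.14 (adjusted p = 0.646), and in replicates 3 and 4 of both groups alone it was 0.13 (adjusted p = 0.802).

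The higher count of Pkd1 was not seen in its TPM. Pkd1 had 7.06, 7.69, 8.35 and 6.21 TPM in tolvaptan plus dDAVP, against 4.21, 7.69, 8.39 and 10.8 TPM in dDAVP alone. The values of dDAVP alone enclosed all 4 values of tolvaptan plus dDAVP, and the means were 7.33 ± 0.912 and 7.77 ± 2.72 TPM (SD, n = 4 each). With limma on log2(TPM + 1) the change was -0.02, with a 95% confidence interval of -0.49 to 0.45 (adjusted p = 0.986). Both scales came from the same reads, and they differ by the length that RSEM, the program that made them, assigned to the gene in each library. The count divided by TPM, taken relative to the median gene of the library, moves with that length. It was 6.46, 3.90, 3.67 and 5.35 for Pkd1 in tolvaptan plus dDAVP, against 6.12, 3.85, 3.03 and 3.05 in dDAVP alone. The highest library thus had 2.13 times the lowest, and replicate 1 of each group was the highest of its group. This spread was larger than that of 99.4% of 11939 genes with 1 TPM or more in all libraries, whose median spread was 1.10, while for the other 8 genes it was 1.02 to 1.24. In GENCODE M21, an annotation other than the study's, Pkd1 has 10 transcripts of 235 to 14164 bases, 5 of them protein-coding. Which transcripts received the reads was not tested.

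**Figure D3:**
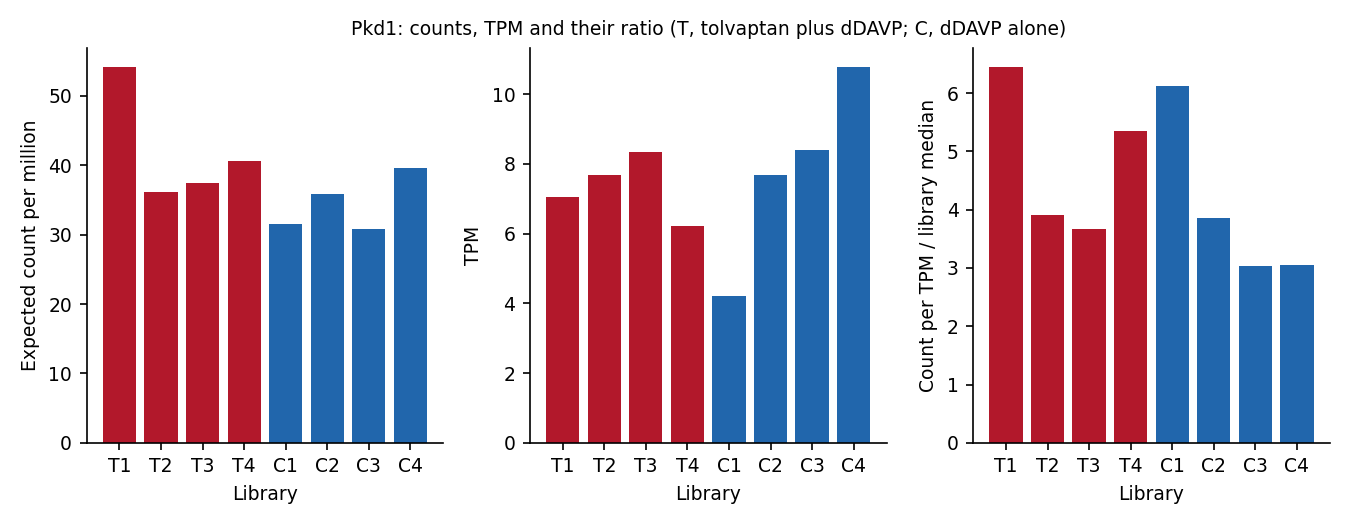
Pkd1 in each library (T1 to T4, tolvaptan plus dDAVP; C1 to C4, dDAVP alone) by CPM, by TPM, and by the count per TPM relative to the library median. T1 was the highest library by count (54.2 CPM) and C4 by TPM (10.8), while the count per TPM was highest in T1 (6.46) and C1 (6.12).

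Reads of Pkd1 also border on those of a neighbour. In the GENCODE M21 annotation 693 of its 17415 exon bases (3.98%) are shared with Tsc2, a tuberous sclerosis gene read from the opposite strand. The library kits do not mark strand, so reads from the shared stretch cannot be assigned by strand. Tsc2 was the more abundant, at 54.2 TPM over all libraries, and had a log2 fold change of 0.06 (standard error 0.06; edgeR adjusted p = 0.774).

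Pkd2 (ENSMUSG00000034462) encodes polycystin-2, the cation channel of the complex. It had 55.0, 55.3, 50.3 and 54.4 TPM in tolvaptan plus dDAVP, against 51.6, 54.2, 51.6 and 49.8 TPM in dDAVP alone. The groups overlapped, and the log2 fold change was 0.04 (standard error 0.05; edgeR adjusted p = 0.804). Pkd2 was the most tightly measured of the 9 genes, with a 95% confidence interval of -0.06 to 0.14 on the log2 scale. Its TPM was 7.44 ± 1.14 times that of Pkd1 in tolvaptan plus dDAVP and 7.52 ± 3.31 times in dDAVP alone (SD, n = 4 each), ranging from 6.03 to 8.76 and from 4.62 to 12.2. The mean log2 ratio differed by 0.07, tolvaptan plus dDAVP minus dDAVP alone (two-sided exact permutation test over the libraries, p = 0.857, where 0.0286 is the smallest p these 8 libraries allow). On CPM, which is not per length, the log2 ratio differed by -0.23 (exact permutation p = 0.171).

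The genes whose log2 CPM followed that of Pkd1 most closely over the 8 libraries were Nfrkb (Pearson r 0.98), Map3k21 (0.97) and Gak (0.96), and for Pkd2 they were Tnks (0.98), Bcl2l13 (0.98) and Cdk19 (0.97). These are descriptions over 8 shared libraries, chosen as the highest of all tested genes.

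Pkhd1 (ENSMUSG00000043760) encodes fibrocystin, a membrane protein of the cilium and apical surface that is mutated in the recessive disease. It had 13.96, 10.2, 11.3 and 10.6 TPM in tolvaptan plus dDAVP, against 10.8, 12.04, 9.67 and 11.5 TPM in dDAVP alone. As for Pkd1, replicate 1 of tolvaptan plus dDAVP was the highest of the 8 libraries, here on both scales (75.5 CPM, against 50.9 to 63.6 in the other 7). The log2 fold change was 0.11 (standard error 0.10; edgeR adjusted p = 0.713), and 0.01 without that library.

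Replicate 1 of tolvaptan plus dDAVP had high counts for long genes in general. Over all genes it also differed most from every other library. The chi-square per degree of freedom of its pairs was 27.2 to 43.1, against 7.51 to 22.4 for pairs of the others. Among the 11939 genes, 339 (2.84%) had a count per TPM that averaged at least 3 times the library median over the 8 libraries, Pkd1, Pkhd1 and Glis3 among them. In that library their median log2 CPM was 0.22 above the mean of the other 7 libraries, against -0.02 for the remaining genes. In the other 7 libraries the same deviation of the long genes was between -0.09 and 0.06. The part of this in the values of Pkd1 and Pkhd1 was not tested beyond leaving the library out.

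Ganab (ENSMUSG00000071650) and Dnajb11 (ENSMUSG00000004460) act on new glycoproteins in the endoplasmic reticulum, and mutations of either give a dominant disease that is mostly milder than that of PKD1. Ganab, the catalytic subunit of glucosidase II, trims glucose from their sugar chains. It had 273, 230, 221 and 226 TPM in tolvaptan plus dDAVP, against 224, 218, 230 and 258 TPM in dDAVP alone. The groups overlapped, with 1 library high in each, and the log2 fold change was 0.02 (standard error 0.07; edgeR adjusted p = 0.951).

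Dnajb11, a co-chaperone of the folding chaperone BiP, had 156, 179, 174 and 176 TPM in tolvaptan plus dDAVP, against 183, 175, 187 and 180 TPM in dDAVP alone. Its log2 fold change was -0.10 (standard error 0.06; edgeR adjusted p = 0.605). Replicate 1 of tolvaptan plus dDAVP was the lowest of the 8 libraries, and without it the log2 fold change was -0.04. Ganab, by contrast, was highest in that library, with a log2 fold change of -0.05 without it.

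The start of Dnajb11 is shown because cAMP, the messenger of the V2 receptor, acts on transcription through the element TGACGTCA. The 250 bases before the RefSeq start were searched on both strands, and such a window was given for 8 of the 9 genes, Bicc1 being the one without. None of the 8 windows held that element, which was in 1.55% of 32851 windows of the same length. The run of its first 5 letters, TGACG, in 17.8% of windows, was in that of Dnajb11 alone, at position -132 of the plus strand (GRCm38.p6, chr16:22857595-22857844, capitals).
Dnajb11: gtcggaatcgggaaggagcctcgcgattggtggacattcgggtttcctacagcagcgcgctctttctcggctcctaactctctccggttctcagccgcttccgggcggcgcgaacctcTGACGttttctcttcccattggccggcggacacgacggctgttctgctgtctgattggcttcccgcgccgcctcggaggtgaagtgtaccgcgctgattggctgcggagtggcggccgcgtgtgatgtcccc
The same window held 4 copies of the box CCAAT, all as ATTGG on this strand, and that of Ganab held 2. CCAAT was in 33.8% of all windows. These matches describe letters and say nothing of binding.

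Dzip1l (ENSMUSG00000037784) and Cys1 (ENSMUSG00000062563) belong to the cilium itself. Dzip1l, a protein of the transition zone at the base of the cilium whose mutation causes recessive disease, had 10.3, 10.8, 10.2 and 9.38 TPM in tolvaptan plus dDAVP, against 9.74, 9.46, 12.1 and 11.0 TPM in dDAVP alone. The groups overlapped throughout (log2 fold change -0.0060, standard error 0.08, edgeR adjusted p = 0.989). Cys1 encodes cystin, a lipid-anchored protein of the ciliary membrane that is lost in the cystic cpk mouse. It had 5.19, 4.40, 4.48 and 4.87 TPM in tolvaptan plus dDAVP, against 4.20, 5.38, 4.24 and 6.40 TPM in dDAVP alone. Replicate 4 of dDAVP alone was the highest library. Cys1 had 151 to 227 expected counts per library and the widest interval of the 9 genes, its log2 fold change of -0.15 having a 95% confidence interval of -0.43 to 0.14 (edgeR adjusted p = 0.724). Without dDAVP alone replicate 4 the log2 fold change was -0.03.

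Bicc1 (ENSMUSG00000014329) and Glis3 (ENSMUSG00000052942) regulate other genes. Bicc1, an RNA-binding protein that is mutated in the cystic jcpk and bpk mice, had 132, 145, 130 and 126 TPM in tolvaptan plus dDAVP, against 120, 128, 130 and 129 TPM in dDAVP alone. The groups overlapped (log2 fold change 0.06, standard error 0.05, edgeR adjusted p = 0.752), and without tolvaptan plus dDAVP replicate 2, the highest library, the log2 fold change was 0.0079. Glis3, a zinc finger transcription factor whose loss gives cystic kidneys and neonatal diabetes, had 33.2, 35.5, 31.0 and 34.5 TPM in tolvaptan plus dDAVP, against 28.2, 31.1, 29.8 and 34.4 TPM in dDAVP alone. Of the 9 genes it had the second lowest unadjusted p, but dDAVP alone replicate 4 lay level with the high libraries of tolvaptan plus dDAVP (log2 fold change 0.11, standard error 0.06, edgeR adjusted p = 0.549). In GENCODE M21 Bicc1 shares exon bases with 4930533K18Rik and Pkhd1 with 4930486I03Rik, each on the opposite strand. Both neighbours were close to absent, at 0.0575 and 0.0488 TPM.

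The genes around the 9 in the pathway were read from 7 lists with 121 genes, of which 106 were tested. None passed the edgeR threshold and none passed with limma voom, while DESeq2, which called 2.58% of 13053 genes, called 3 of them (Mapkbp1 and Tsc1 higher, Cep290 lower with tolvaptan). At an unadjusted p under 0.05 edgeR gave 22 of the 106 genes (20.8%), beside 11.2% of all tested genes. Of the 22, 9 were higher and 13 lower with tolvaptan. The lists were chosen with earlier results of these data known, so these shares are a description and no test of the lists.

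**Figure D4:**
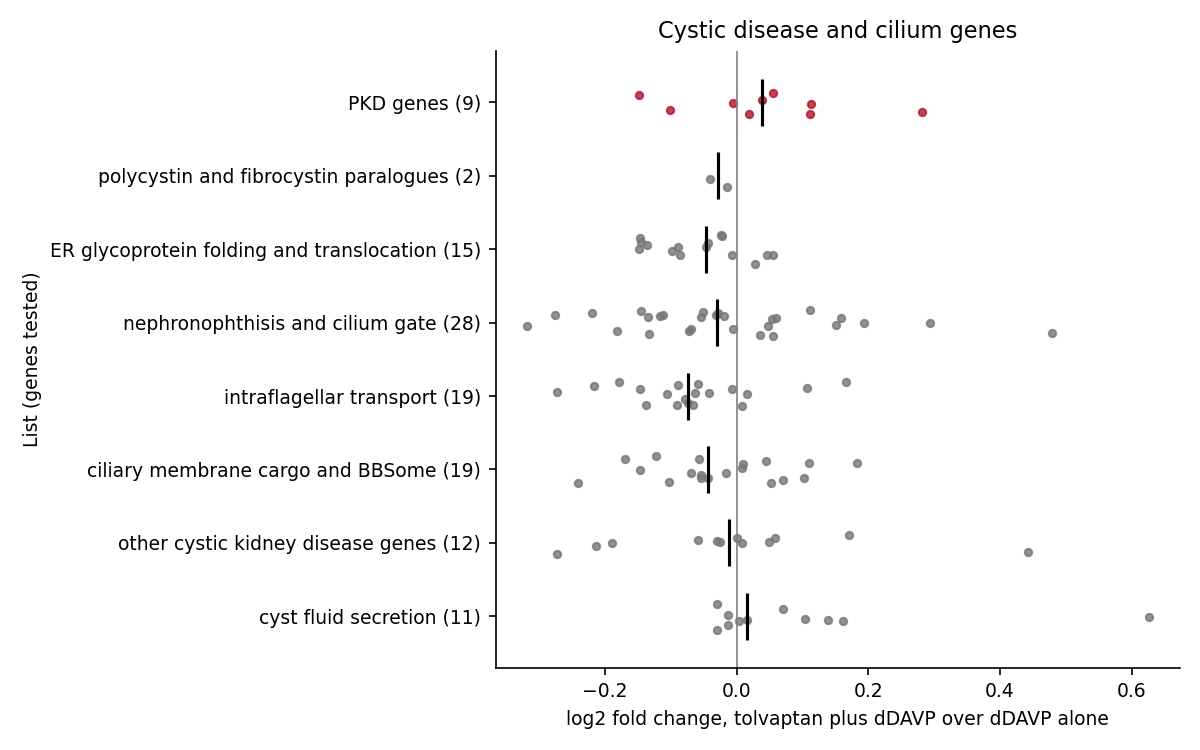
Log2 fold change (edgeR, tolvaptan plus dDAVP over dDAVP alone) of each tested gene in the list of 9 disease genes and the 7 pathway lists, with a bar at each list median. The median of the 9 was 0.04, and those of the 7 lists lay between -0.07 for intraflagellar transport and 0.02 for cyst fluid secretion.

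Relatives of the polycystins and fibrocystin were barely present. Of 7 paralogues only Pkd2l2 (0.493 TPM) and Pkd1l2 (0.481 TPM) had enough counts to be tested, and Pkd1l1, Pkd2l1, Pkdrej and Pkhd1l1 averaged under 0.1 TPM. Pkd1, Pkd2 and Pkhd1 were therefore the main measured members of their families in these cells.

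Of 15 tested genes of glycoprotein folding and translocation in the endoplasmic reticulum, the setting of Ganab and Dnajb11, 12 were below 0 and 3 above, beside 48.3% above 0 of all tested genes, with a median of -0.05. The summed level was 3875 to 3990 TPM in tolvaptan plus dDAVP and 4063 to 4243 TPM in dDAVP alone, without overlap. No test was made of that sum. Abundant genes weigh most in such a sum, here and in the lists below. How often sums over other sets of genes separate the groups was not determined. Hspa5, which encodes BiP, the partner of Dnajb11, was at 954 ± 43.0 TPM in tolvaptan plus dDAVP and 1055 ± 45.7 TPM in dDAVP alone (log2 fold change -0.15, standard error 0.05, edgeR adjusted p = 0.244). Hsp90b1, a chaperone of the same compartment, was at 514 ± 22.7 and 563 ± 7.81 TPM (log2 fold change -0.15, adjusted p = 0.263). Calr, the lectin chaperone calreticulin, was the second most abundant of the list, at 559 TPM over all libraries.

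The cilium lists held the settings of Dzip1l, Cys1 and the polycystins. For intraflagellar transport, which builds the cilium, 15 of 19 tested genes were below 0 and 4 above, where 48.3% of all tested genes were above 0, and the median was -0.07. At an unadjusted p under 0.05, 4 of the 19 were lower with tolvaptan and 0 higher, beside 4.74% lower and 6.44% higher of all tested genes. The summed level was 1089 to 1135 TPM in tolvaptan plus dDAVP and 1142 to 1164 TPM in dDAVP alone, again without overlap and without a test. Ift81, which carries tubulin, was at 22.0 ± 0.83 and 25.7 ± 0.850 TPM (log2 fold change -0.22, edgeR adjusted p = 0.192), and Kifap3, a subunit of the transport motor, at 14.5 ± 0.741 and 16.3 ± 0.881 TPM (log2 fold change -0.18, adjusted p = 0.268). Ift43 and Ift27 were the most abundant, at 264 and 126 TPM over all libraries.

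Among 19 tested genes of ciliary membrane cargo and the BBSome, the coat that moves membrane proteins, 11 were below 0 and the median was -0.04. The summed level was 611 to 640 TPM in tolvaptan plus dDAVP and 647 to 657 TPM in dDAVP alone, also without overlap and without a test. Pde6d, which releases lipid-anchored proteins, was at 88.0 ± 9.94 TPM in tolvaptan plus dDAVP and 102 ± 2.78 TPM in dDAVP alone (log2 fold change -0.24, edgeR adjusted p = 0.334), with a log2 fold change of -0.14 without tolvaptan plus dDAVP replicate 1. Bbs1, a BBSome subunit, was at 17.3 ± 0.916 and 14.6 ± 1.52 TPM (log2 fold change 0.18, adjusted p = 0.368), and Unc119b, a carrier of lipid-anchored proteins, was the most abundant at 102 TPM over all libraries. Among 28 tested genes of nephronophthisis and the cilium gate, 17 were below 0 and the median was -0.03. Here the summed levels overlapped, at 665 to 681 TPM in tolvaptan plus dDAVP and 648 to 677 TPM in dDAVP alone. Mapkbp1, a scaffold protein of that disease group, was at 1.495 ± 0.0520 and 1.03 ± 0.161 TPM (log2 fold change 0.48, standard error 0.10, edgeR adjusted p = 0.0732, DESeq2 adjusted p = 0.00311). Cep290, a large protein of the cilium gate, was at 6.91 ± 0.326 and 8.33 ± 0.414 TPM (log2 fold change -0.28, standard error 0.07, edgeR adjusted p = 0.109, DESeq2 adjusted p = 0.00890). The most abundant of this list were Anks3, known to bind Bicc1, at 105 ± 7.83 and 89.1 ± 2.89 TPM, and Tmem216, at 78.4 TPM over all libraries. Anks3 did not pass (log2 fold change 0.19, standard error 0.06, edgeR adjusted p = 0.189, DESeq2 adjusted p = 0.0677).

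Other cystic kidney disease genes were evenly divided, 6 above and 6 below 0 of 12 tested, with a median of -0.01. The summed level was 932 to 1047 TPM in tolvaptan plus dDAVP and 919 to 1157 TPM in dDAVP alone, with overlap. Tsc1, the partner of Tsc2 in restraining mTOR, was at 16.1 ± 1.52 TPM in tolvaptan plus dDAVP and 12.6 ± 0.618 TPM in dDAVP alone (log2 fold change 0.44, standard error 0.09, edgeR adjusted p = 0.0757). It passed in DESeq2 (adjusted p = 0.00174) and in edgeR without a filter (adjusted p = 5.06e-05). Without tolvaptan plus dDAVP replicate 1 it also passed in edgeR (log2 fold change 0.33, adjusted p = 0.0286). It did not pass with limma voom (adjusted p = 0.0877), limma on log2(TPM + 1) (0.183) or the replicate block in edgeR (0.0992). With any other library left out, or in replicates 3 and 4 alone (edgeR adjusted p = 0.282), it did not pass either. Nek1, a ciliary kinase mutated in the cystic kat mouse, was at 9.55 ± 0.841 and 10.5 ± 0.520 TPM (log2 fold change -0.19, edgeR adjusted p = 0.272), and Muc1 was the most abundant at 758 TPM over all libraries.

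For cyst fluid secretion, 7 of 11 tested genes were above 0 and the median was 0.02. The summed level was 1158 to 1299 TPM in tolvaptan plus dDAVP and 1168 to 1236 TPM in dDAVP alone, with overlap. The chloride entry transporter Slc12a2 was at 33.7 ± 1.98 TPM in tolvaptan plus dDAVP and 30.1 ± 1.60 TPM in dDAVP alone (log2 fold change 0.16, edgeR adjusted p = 0.265). Adcy3, an adenylyl cyclase, was at 0.912 ± 0.356 and 0.618 ± 0.193 TPM (log2 fold change 0.63, standard error 0.21, adjusted p = 0.282). Adcy6, the cyclase that the paper names downstream of the V2 receptor, averaged 25.5 TPM over all libraries (log2 fold change 0.0038, edgeR adjusted p = 0.993). Prkar1a, a regulatory subunit of protein kinase A, and Avpr2 were the most abundant, Prkar1a at 378 TPM over all libraries. Cftr, the chloride channel of cyst secretion, was at 0 to 0.07 TPM per library and was not tested.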

How the data were processed

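RNA of mpkCCD cells was made into cDNA with a SMARTer kit and into libraries with a Nextera XT kit per the labels, a combination that does not mark strand. STAR and RSEM are the tools in the submitters' processing notes, with versions not given in the sources used here, while an Ensembl annotation is named in the methods of the study. The authors deposited expected counts per gene, without normalization, and TPM, which has the same total in each library. Further deposited columns with each gene's lowest and highest TPM (an other kind of value) were not used. Deposited tables with the authors' own DESeq2 log2 fold changes and p-values, and of term enrichment, were not used either. Every sample column was mapped to a labelled sample, with 0 left over.

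After rounding, edgeR 4.0.16 (R 4.3.3; TMM, two-sided quasi-likelihood test, no covariate) was run on 14772 of 55414 genes, those that reached 10 counts in 4 libraries or more. Its p-values were adjusted by Benjamini-Hochberg, and 0.05 was the threshold. DESeq2, the tool of the study, was an alternative here (1.42.0), as were limma voom and limma 3.58.1 with a trend on log2(TPM + 1), RLE and upper-quartile factors, no filter, filterByExpr, the replicate number as a block, replicates 3 and 4 alone, and leaving out each library. Standard errors follow from each fold change and F statistic. CPM is the expected count scaled by the library total. The edgeR, DESeq2 and limma voom fits were also run on simulated counts with known changes. That simulation held neither the replicate split nor the long-gene deviation of tolvaptan plus dDAVP replicate 1. It therefore cannot show how the fits handle these features. All pairs of libraries differed beyond sampling noise (chi-square per degree of freedom of 7.51 or more), those with tolvaptan plus dDAVP replicate 1 the most.

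The 9 genes and the lists were chosen with earlier results of these data known. Beside the 9, the genes named were, of each pathway list, those past the threshold or else the 2 most abundant and the 2 of lowest unadjusted p, Aqp2, Avpr2 and the highest gene of each marker list, the 3 genes most correlated with Pkd1 and with Pkd2, and genes that overlap one of the 9. The paralogues, Cftr, Adcy6, Elf5, Aqp6, Podxl, Aqp1, Ptprc and the marker genes under 0.1 TPM were added after their values were seen. A few genes covered by the rule are left unreported, though all fits and counts include them. Transcripts and overlaps came from GENCODE M21 (GRCm38) and the sequences from RefSeq (GRCm38.p6), neither of which is the annotation of the study. Position 0 is the RefSeq start, and a match is placed by its leftmost base.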

Additional observations from a re-analysis of the deposited data

Results flagged for a closer look

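Of 70 groups of 4 values of the 9 genes and the lists, 4 held a library whose gap to the nearest other, as a share of the group's range, exceeded Dixon's 95% critical value, where chance gives about 1 in 20. In all 4 it was replicate 1 of tolvaptan plus dDAVP. Pkhd1 was at 75.5 CPM there, against 59.0 in the nearest library of the group. Ganab was at 568 CPM, against 482. Dnajb11 was at 148 CPM, against 176, and its count per TPM relative to the library median was 0.800, against 0.825.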

How the results depend on the processing

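None of the 9 genes passed the threshold under any of 17 alternatives, the lowest adjusted p being 0.0531 for Pkd1 without a filter. Of 153 values of the 9 under these alternatives, 145 kept their direction and 8 reversed, all within 4 genes. Pkd1 was -0.022 with limma on log2(TPM + 1), and 0.14 to 0.37 when libraries were left out. Ganab was -0.14 and Bicc1 -0.034 in replicates 3 and 4 alone. In the same fit Glis3 was 0.0007, Pkhd1 0.0084, Dzip1l -0.16 and Cys1 -0.22. Leaving out each library gave -0.047 to 0.085 for Ganab and -0.065 to 0.055 for Dzip1l. Of the genes that kept their direction in those fits, Pkd2 ranged from 0.018 to 0.057, Pkhd1 from 0.0084 to 0.17 and Glis3 from 0.0007 to 0.16 over all alternatives. The cause was not tested. The 59 calls over all genes (27 higher, 32 lower) became 337 with DESeq2 (199 higher, 138 lower), 256 without a filter (128 and 128), 22 with limma on log2(TPM + 1) (3 higher, 19 lower), 29 in replicates 3 and 4 alone (1 higher) and 20 to 82 when each library was left out. In the nephronophthisis list DESeq2 called 2 genes and the fit without a filter 1. In the list of other cystic disease genes DESeq2 called 1, the fit without a filter 1, and leaving out each library 0 to 1. Same-numbered libraries deviated together little (r from -0.01 to 0.16), so the numbers were not read as pairs. With the replicate block 17 genes were called (3 higher, 14 lower), none of the 9, and Pkd1 had 0.27 (adjusted p = 0.474).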
